A study of Mus musculus with 6 samples.

Results

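Genes of the plasminogen activators, their receptor and serpins were followed in an immortalized line of mouse embryonic fibroblasts without KDM5A, a demethylase of lysine 4 on histone H3. The set names 7 genes, and its members were the probe sets that the platform annotation gives to 1 of these genes alone. Such probe sets were found for 6 genes: Plau and Plat, Plaur, Serpinb2, Serpinf1 and Serping1. They numbered 9 of the 45101 probe sets on the array, and the 6 genes were among 18194 genes with a named probe set. The annotation assigned no probe set to Serpine2, which was not analysed here. The set was chosen by gene family and, for Serpinb2, on values of these arrays, since it was already known to be higher in the second arrays of the KDM5A groups. Differences between the first and second arrays are therefore given as a description, with no test.

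All 3 groups were KDM5A-/- fibroblasts of mixed strain background, so the controls lacked the gene too. They carried an empty vector, re-introduced wild-type KDM5A, or re-introduced KDM5A-H483A, a form with a histidine of the catalytic domain replaced by alanine, on 2 arrays each. The labels number the arrays of a group as biological replicates and do not state whether they came from separate cultures. The p-values thus measure only the spread between these samples, which may be technical. The sources used here do not give whether a group was 1 clone or a pool, or which promoter drove the constructs. RNA came from subconfluent cells grown with serum and was measured on Affymetrix mouse M430 2.0 arrays. Below, each set of values runs from the control cells (empty vector) through the knockout cells given wild-type KDM5A (KDM5A-WT cells) to those given KDM5A-H483A (H483A cells), the first array before the second. Values are log2 expression after RMA, a procedure that corrects background, equalizes the arrays and summarises each probe set, so a difference of 1 is a doubling.

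Plasminogen is a circulating precursor that becomes the broad protease plasmin when it is cleaved by urokinase (uPA, from Plau) or by tissue-type plasminogen activator (tPA, from Plat). The receptor uPAR, from Plaur, holds urokinase at the cell surface, where fibroblasts use the protease to degrade matrix and to migrate. Serpins are a family of proteins that mostly trap serine proteases by offering them a bait loop. Serpinb2 encodes plasminogen activator inhibitor type 2, which blocks urokinase and tPA. Serping1 encodes the C1 inhibitor of complement and contact proteases, and Serpinf1 encodes PEDF, a secreted serpin that does not inhibit proteases and is known as an anti-angiogenic factor.

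The arrays carried a fibroblast profile, with 11 of 12 fibroblast markers above percentile 75 of all probe sets, against 0 of 10 macrophage, 1 of 10 endothelial and 0 of 10 epithelial markers. Of all 18194 genes, 6755 lay above this percentile. The mean level per array lay at 8.82 to 9.70 for the fibroblast, 4.57 to 4.68 for the macrophage, 4.05 to 4.10 for the endothelial and 4.36 to 4.56 for the epithelial list. The fibroblast exception was Lum, at a mean of 5.03, and the endothelial exception was Kdr, at a mean of 6.51. The epithelial list had a median second minus first difference of 0.03 in KDM5A-WT cells and 0.02 in H483A cells. Its Krt19, picked for mention with its values in view, stood at 5.27 and 5.38, 5.25 and 6.30, and 5.42 and 7.01, and the other 9 genes did not share this gap, with differences of -0.37 to 0.16 in the KDM5A groups. The second arrays of both KDM5A groups stood apart from the first. The mean level of 11 collagen and matrix genes was 11.32 and 11.01 in control cells, 11.55 and 10.07 in KDM5A-WT cells, and 11.39 and 10.01 in H483A cells. Interferon-stimulated genes, 10 in number, averaged 5.33 and 5.15, then 6.40 and 5.02, then 5.92 and 4.92, and the 12 fibroblast markers 9.5 and 9.23, 9.70 and 8.83, and 9.49 and 8.82. The part of these differences in the results below was not tested. In the actin control of the array, the 3' probe set exceeded the 5' one by 1.21 to 1.64 over the 6 arrays, and in the Gapdh control by 1.31 to 1.86. The brightest Kdm5a probe set lay between 5.83 and 6.11 in all arrays. The next brightest stood at 5.63 and 5.85, 6.14 and 5.50, and 5.48 and 4.85, lower in the second array of both KDM5A groups. The place of these probe sets relative to the deletion and the constructs was not given, so they check neither.

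Promoter windows are shown for Serpinb2 and Plaur, which were higher in the second arrays of all 3 groups, and for Serpinf1, which was lower there. They run from 250 bases before to 50 after an annotated start and come from RefSeq (build GRCm38.p6). The Serpinf1 start is the edge of the gene's RefSeq range, while that range begins 10531 bases upstream of the Serpinb2 start and 1546 bases upstream of the Plaur start shown. Starts farther upstream in these genes were not analysed here. Windows were matched for these genes and for Serpine2, and not for Plau, Plat and Serping1. Capitals mark matches on either strand to TGANTCA, the site of the AP-1 transcription factors, to TATAAA, the TATA box, and to CCGCCC, the sequence that the DNA-binding ARID domain of KDM5A is known to prefer. The last reads GGGCGG on the other strand, which is also the GC box bound by Sp1. Serpinb2 lies at chr1:107511173-107511472 on the plus strand, Plaur at chr7:24462233-24462532 on the plus strand and Serpinf1 at chr11:75422574-75422873 on the minus strand.
Serpinb2: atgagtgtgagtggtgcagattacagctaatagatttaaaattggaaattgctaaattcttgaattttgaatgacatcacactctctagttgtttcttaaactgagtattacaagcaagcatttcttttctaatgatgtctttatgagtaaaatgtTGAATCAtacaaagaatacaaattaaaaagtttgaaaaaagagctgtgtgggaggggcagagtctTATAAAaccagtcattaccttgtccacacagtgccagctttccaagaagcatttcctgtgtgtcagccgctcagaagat
Plaur: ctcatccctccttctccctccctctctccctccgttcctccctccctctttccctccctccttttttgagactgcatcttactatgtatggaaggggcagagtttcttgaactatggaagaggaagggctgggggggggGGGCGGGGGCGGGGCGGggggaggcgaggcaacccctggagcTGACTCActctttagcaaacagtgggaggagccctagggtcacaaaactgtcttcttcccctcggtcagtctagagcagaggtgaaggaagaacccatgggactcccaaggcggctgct
Serpinf1: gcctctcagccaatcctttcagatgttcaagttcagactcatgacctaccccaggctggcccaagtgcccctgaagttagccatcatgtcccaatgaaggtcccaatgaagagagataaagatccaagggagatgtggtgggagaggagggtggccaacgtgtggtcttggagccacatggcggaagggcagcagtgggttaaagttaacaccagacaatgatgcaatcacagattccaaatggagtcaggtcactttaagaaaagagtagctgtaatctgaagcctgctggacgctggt

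The Serpinb2 window held 1 TGANTCA match, TGAATCA beginning at position -94 from the start, and 1 TATAAA match at -29. A second annotated Serpinb2 start lies 87 bases downstream, and its window holds the same matches. Plaur held TGACTCA at -69 and 3 CCGCCC matches between -111 and -100, all read as GGGCGG and 2 of them overlapping. None of the 3 motifs was found in the Serpinf1 window. Over all 32851 promoter windows of 300 bases, 7.81% held TGANTCA, 35.7% held CCGCCC and 13.6% held TATAAA. A match is a description of letters, not of binding.

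The activator gene with a clear signal was Plat, and its level differed more between the arrays of a KDM5A group than between groups. Plat (probe set 1415806_at, at percentile 92.4 of all probe sets by mean level) stood at 8.87 and 8.88 in control cells, at 9.52 and 7.59 in KDM5A-WT cells, and at 8.95 and 7.04 in H483A cells. The control arrays were level, the first KDM5A arrays lay above both, and the second KDM5A arrays lay below all others. The gap within a group was 3.81-fold in KDM5A-WT cells and 3.75-fold in H483A cells, against 1.01-fold in control cells. In bulk RNA, less Plat in each cell and fewer cells with Plat cannot be told apart. The other Plat probe set (1458553_at) lay between 4.57 and 4.79 in every array and did not show the gap.

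Group means of Plat were 8.88 ± 0.01 in control cells, 8.56 ± 1.37 in KDM5A-WT cells and 8.0 ± 1.35 in H483A cells (SD, n = 2). The log2 fold change against the controls was -0.32 for KDM5A-WT cells (SE 0.77, 95% CI -2.16 to 1.53, adjusted p by limma = 1). For KDM5A-H483A it was -0.88 (SE 0.77, 95% CI -2.72 to 0.97, adjusted p by limma = 0.999). Neither difference passed the threshold, and the groups overlapped in both comparisons. The sign rested on the second KDM5A array. Without it the log2 fold change was 0.65 for KDM5A-WT cells and 0.08 for H483A cells, and without the first array it was -1.28 and -1.83. With the mean of both probe sets the H483A value was -0.51.

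**Figure D1:**
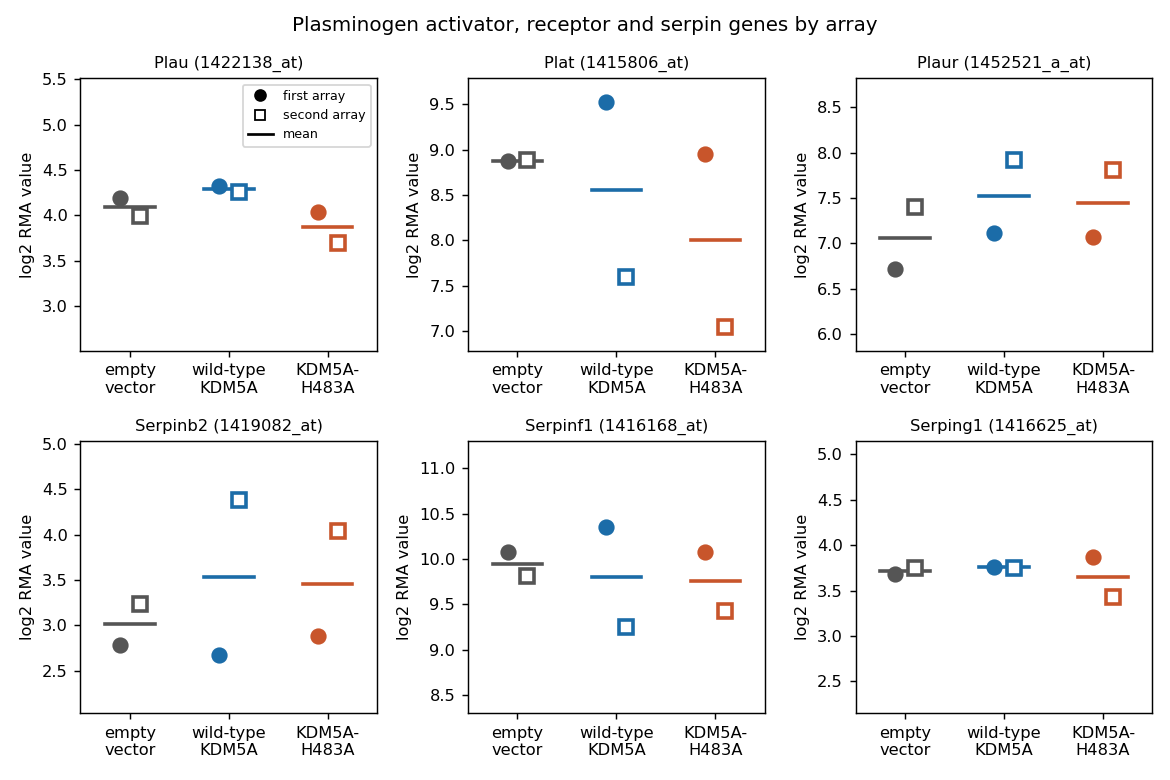
Log2 RMA value of the brightest probe set of each gene, by group, with the first array of a group as a filled circle, the second as an open square and the mean as a bar; each vertical axis spans 3 log2 units. Plat and Serpinf1 are lower, and Plaur and Serpinb2 higher, in the second arrays of both KDM5A groups, while Plau and Serping1 stay within 0.62 and 0.44 log2 units over all 6 arrays.

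Plau, the urokinase gene, gave a weak signal with small differences. Its brighter probe set (1422138_at, at percentile 40.3) stood at 4.19 and 3.99 in control cells, 4.32 and 4.26 in KDM5A-WT cells, and 4.04 and 3.70 in H483A cells. Both KDM5A-WT arrays lay above all 4 others, and the H483A arrays overlapped with the control arrays. At this level the signal may not lie above background, which these values alone do not settle. The dimmer probe set (1422139_at, at percentile 3.92) lay between 2.54 and 3.07.

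In the comparison of the KDM5A forms, Plau had the smallest p of the 6 genes. Its mean was 3.87 ± 0.24 in H483A cells and 4.29 ± 0.04 in KDM5A-WT cells (SD, n = 2). KDM5A-H483A lay lower by a log2 difference of -0.42 with a 95% CI of -0.80 to -0.04 (SE 0.16, adjusted p by limma = 0.928, 0.0363 before adjustment). The difference did not pass the threshold over all genes. With 1 array left out at a time, the fold change ranged from -0.59 to -0.25. Over the other alternatives the adjusted p by limma ranged from 0.795 to 0.997. In a fit over all 45101 probe sets the dimmer one gave -0.19 (95% CI -0.63 to 0.25). Against the controls, Plau differed by 0.20 (95% CI -0.19 to 0.58, adjusted p by limma = 1) in KDM5A-WT cells and by -0.22 (95% CI -0.60 to 0.16, adjusted p by limma = 0.999) in H483A cells. Leaving out 1 array moved these from 0.10 to 0.30 and from -0.39 to -0.05, and the mean of both probe sets gave -0.13 in H483A cells.

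Plaur, the urokinase receptor gene, was measured by 1 probe set (1452521_a_at, at percentile 84.6). It stood at 6.71 and 7.40 in control cells, 7.11 and 7.92 in KDM5A-WT cells, and 7.07 and 7.80 in H483A cells. The second array was the higher one in all 3 groups, by 1.61-fold, 1.75-fold and 1.66-fold, so this gap was not limited to the KDM5A groups. The first arrays of the KDM5A groups lay between the 2 control arrays, and the second ones lay above them.

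Plaur means were 7.05 ± 0.49, 7.52 ± 0.57 and 7.44 ± 0.52 (SD, n = 2) in the same group order. The log2 fold change against the controls was 0.46 for KDM5A-WT cells (SE 0.38, 95% CI -0.44 to 1.37, adjusted p by limma = 1). With KDM5A-H483A it was 0.38 (SE 0.38, 95% CI -0.52 to 1.29, adjusted p by limma = 0.999). The groups overlapped and neither difference passed. Each KDM5A array lay above the control array of the same number, and the intervals count the gap between arrays as spread. With a term for the array number (the replicate block), the adjusted p by limma was 0.998 and 0.996. Leaving out the second array of the KDM5A group gave 0.06 and 0.02, and leaving out the first gave 0.87 and 0.75. These fits set 1 KDM5A array against control arrays of both numbers, so they move with that gap.

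Serpinb2, the gene of plasminogen activator inhibitor type 2, was weak in all arrays and higher in the second arrays of the KDM5A groups, the difference for which it was known. Its only probe set (1419082_at, at percentile 20.9) stood at 2.78 and 3.23 in control cells, 2.67 and 4.38 in KDM5A-WT cells, and 2.88 and 4.04 in H483A cells. The second array stood above the first by 0.45 log2 units in control cells, 1.71 in KDM5A-WT cells and 1.15 in H483A cells. All these values lay below the array medians of 4.55 to 4.60 and may not lie above background. No linear fold is given, and the size of the gaps is uncertain. All first arrays lay below all second arrays.

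As group means, Serpinb2 was 3.01 ± 0.32, 3.53 ± 1.21 and 3.46 ± 0.82 (SD, n = 2) by group. The difference from the controls was 0.52 in KDM5A-WT cells (SE 0.60, 95% CI -0.92 to 1.97, adjusted p by limma = 1) and 0.45 in H483A cells (SE 0.60, 95% CI -1.0 to 1.89, adjusted p by limma = 0.999). Neither passed the threshold. Without the second KDM5A array the values were -0.33 and -0.13, and without the first they were 1.37 and 1.03. Serpinb2 lies in a cluster of related serpin genes. Of its measured protein-coding neighbours in the RefSeq gene order, Serpinb7 stood between 2.51 and 2.83 and Serpinb8 between 3.99 and 4.28 over the 6 arrays.

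Serpinf1, the PEDF gene, ran in nearly the opposite order of arrays to Serpinb2. The brighter of its 2 probe sets (1416168_at, at percentile 97.3) stood at 10.08 and 9.82 in control cells, 10.35 and 9.25 in KDM5A-WT cells, and 10.08 and 9.43 in H483A cells. From low to high the arrays ran second KDM5A-WT, second H483A, second control, first control, first H483A and first KDM5A-WT, and the last named 3 arrays were the 3 lowest for Serpinb2. The first control and first H483A arrays both round to 10.08. The second probe set (1453724_a_at) showed the same sign of the gap in each group, at 8.71 and 8.58, 9.23 and 8.31, and 8.83 and 8.36. In the brighter probe set the gap was 1.20-fold in control cells, 2.15-fold in KDM5A-WT cells and 1.57-fold in H483A cells.

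Serpinf1 means were 9.95 ± 0.19 in control cells, 9.80 ± 0.78 in KDM5A-WT cells and 9.76 ± 0.46 in H483A cells (SD, n = 2). Against the controls the log2 fold change was -0.15 (SE 0.38, 95% CI -1.07 to 0.77, adjusted p by limma = 1) and -0.19 (SE 0.38, 95% CI -1.11 to 0.73, adjusted p by limma = 0.999). These differences were smaller than the SD between the arrays of either KDM5A group. The signs turned without the second KDM5A array, to 0.40 and 0.14, and with the mean of both probe sets the values were -0.0126 and -0.12. In a fit over all 45101 probe sets the second one gave 0.12 (95% CI -0.62 to 0.86) for KDM5A-WT cells and -0.05 (95% CI -0.79 to 0.69) for H483A cells. Its neighbour Serpinf2, the gene of the plasmin inhibitor alpha-2-antiplasmin, stood at 5.91 and 5.86, 5.70 and 5.95, and 5.66 and 5.86, without a lower second array in the KDM5A groups. Other genes nearby differed in their second minus first values in KDM5A-WT and H483A cells. These were 0.59 and 0.84 for Rpa1, 0.38 and 0.46 for Smyd4, and -0.20 and 0.65 for Wdr81.

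Serping1, the C1 inhibitor gene, stood at 3.69 and 3.75 in control cells, 3.76 and 3.75 in KDM5A-WT cells, and 3.86 and 3.43 in H483A cells (probe set 1416625_at, at percentile 31.3). The signal was weak and may not lie above background. All arrays but the second H483A array, the lowest, lay within 3.69 to 3.86. The log2 fold change against the controls was 0.03 (SE 0.17, 95% CI -0.37 to 0.44, adjusted p by limma = 1) in KDM5A-WT cells and -0.07 (SE 0.17, 95% CI -0.48 to 0.33, adjusted p by limma = 0.999) in H483A cells. Without the second H483A array the latter was 0.14.

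**Figure D2:**
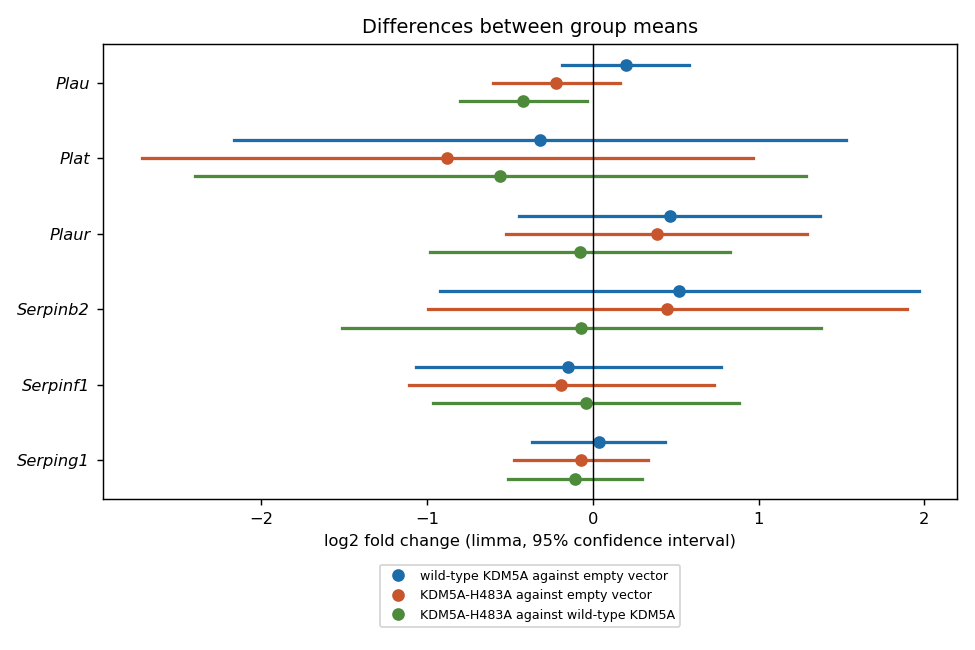
Log2 fold change of each gene in the 3 comparisons (points) with its 95% confidence interval from limma (lines). The intervals include 0 in every case but Plau between KDM5A-H483A and wild-type KDM5A, at -0.80 to -0.04, whose adjusted p is 0.928.

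Over the 6 genes, 0 passed the limma threshold of adjusted p under 0.05 in any of the 3 comparisons, and 0% of all 18194 genes did. At an unadjusted p under 0.05 there were 0, 0 and 1 of the 6 for KDM5A-WT cells and H483A cells against the controls and for H483A against KDM5A-WT cells. The share of all genes was 2.52%, 1.65% and 3.81%. The arrays of both groups were apart for 1, 0 and 1 of the 6 genes, where 31.8%, 28.2% and 31% of all genes were. The gene apart was Plau both times. The median log2 fold change of the 6 genes was 0.12, -0.13 and -0.09, against 0.005, 0.001 and -0.007 for all genes. The first and second comparison share the control arrays.

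None of the 6 genes passed between the KDM5A forms, and the intervals of the 5 besides Plau include 0. Between KDM5A-H483A and wild-type KDM5A the log2 fold change was -0.56 (95% CI -2.40 to 1.29) for Plat, -0.08 (95% CI -0.99 to 0.83) for Plaur, -0.07 (95% CI -1.52 to 1.37) for Serpinb2, -0.04 (95% CI -0.96 to 0.88) for Serpinf1 and -0.11 (95% CI -0.51 to 0.29) for Serping1. The adjusted p by limma of these 5 genes lay between 0.945 and 0.993. The intervals for Plat and Serpinb2 include changes of more than 1 log2 unit either way, so the data do not show that the forms act alike. These intervals count the gap between the arrays of a group as spread. For Plat, each H483A array lay below the KDM5A-WT array of the same number, at 8.95 against 9.52 and 7.04 against 7.59. With the replicate block its adjusted p by limma was 0.822.

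**Figure D3:**
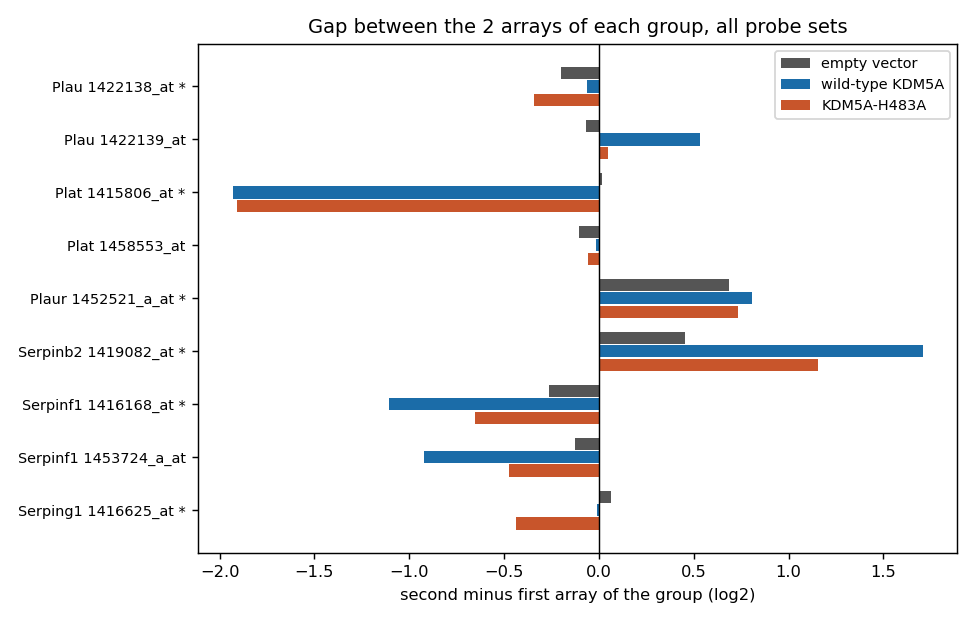
Second minus first array of each group on the log2 scale for the 9 probe sets, with an asterisk on the brightest of each gene. Plat shows a gap of -1.93 and -1.91 in the KDM5A groups and 0.02 in control cells, while the Plaur gap lies between 0.69 and 0.81 in all 3 groups.

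Between the numbered arrays, the genes fell into those lower and those higher in the second KDM5A arrays. Plat and Serpinf1 were lower by at least 0.5 log2 units in both KDM5A groups, and Plaur and Serpinb2 were higher by at least 0.5 in both. Over all genes, 3.25% were lower and 1.67% higher by this measure. Since the set was chosen with this contrast in view, nothing is read from these counts. Nearest to 0.5 among these genes was Serpinf1 in H483A cells, at -0.65. Serping1 reached -0.44 in H483A cells but only -0.01 in KDM5A-WT cells, so it was far from meeting the measure in both. The gap of Serpinf1 was -1.11 in KDM5A-WT cells and -0.65 in H483A cells. With 1 gap in each group, its size is not ranked between the KDM5A forms for any gene.

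**Figure D4:**
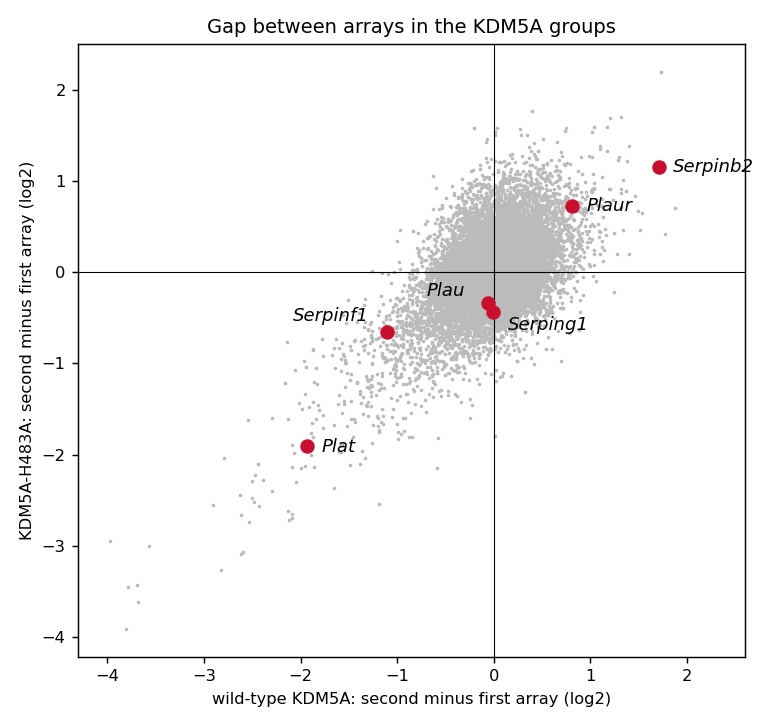
Second minus first array in KDM5A-WT cells (horizontal) and in H483A cells (vertical), in log2 units, for all 18194 genes (grey) and the 6 genes named (red). Plat and Serpinf1 lie at the lower left, Plaur and Serpinb2 at the upper right, and Plau and Serping1 near the centre.

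The genes most like each of these 4 over the 6 arrays were taken by Pearson's r, among 1127 other genes that spanned at least 1 log2 unit. Symbols of clones, RIKEN sequences and predicted genes were passed over in this search. As so few arrays separate mainly by the same gap, r is a measure of likeness only. For Plat they were Emilin1 (r 0.996), an elastic fibre glycoprotein, Mapk8ip3 (0.996), a scaffold for JNK kinases, and Denn2b (0.994). Serpinf1 was most like Slc44a1 (0.998), a choline transporter, Olfml3 (0.996), a secreted matrix protein, and Serpinb1a (0.995), an inhibitor of neutrophil proteases. For Plaur they were Ezr (0.981), which links membrane and actin, Hmox1 (0.981), a haem-degrading stress enzyme, and Bdnf (0.980), a neurotrophin. Serpinb2 was most like Sh3rf1 (0.994), a ubiquitin ligase, Rrm2 (0.989), a subunit of ribonucleotide reductase, and Sh3kbp1 (0.986), an endocytic adaptor.

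The wider plasminogen system (co-receptors, proteases and coagulation genes tied to it) was described from its counts. Of 30 further genes listed, 26 were measured and 0 passed in either comparison against the controls. In KDM5A-WT cells 18 were above 0 and 8 below, with a median log2 fold change of 0.08, and in H483A cells 16 were above and 10 below, with a median of 0.05. Thbd, the gene of the anticoagulant receptor thrombomodulin, stood at 7.65 and 7.42 in control cells, 8.84 and 8.06 in KDM5A-WT cells, and 8.50 and 7.82 in H483A cells. The means differed from the controls by 0.92 log2 units in KDM5A-WT cells (95% CI 0.16 to 1.68, adjusted p by limma = 1) and 0.63 in H483A cells (95% CI -0.14 to 1.39, adjusted p by limma = 0.999). Leaving out the first KDM5A array gave 0.53 and 0.28, and leaving out the second gave 1.31 and 0.97. Plgrkt, a plasminogen receptor, differed by 0.50 (95% CI 0.14 to 0.85, adjusted p by limma = 1) in KDM5A-WT cells. In H483A cells it differed by 0.35 (95% CI -0.006 to 0.70, adjusted p by limma = 0.999).

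The annexin complex that binds plasminogen and tPA at the cell surface is formed by Anxa2 and S100a10. S100a10 differed from the controls by 0.52 (95% CI 0.005 to 1.03, adjusted p by limma = 0.999) in H483A cells, standing at 9.73 and 10.35 against 9.46 and 9.58. In KDM5A-WT cells it differed by 0.27 (95% CI -0.25 to 0.78). Anxa2, the brightest gene of this list at a mean of 11.99, differed by 0.35 (95% CI -0.08 to 0.79) in KDM5A-WT cells and 0.37 (95% CI -0.06 to 0.81) in H483A cells. Without the second H483A array the H483A difference was 0.21 for S100a10 and 0.14 for Anxa2, and without the first it was 0.83 and 0.60. With the mean of all probe sets of a gene it was 0.30 for S100a10, and for Anxa2 0.17 in KDM5A-WT cells and 0.14 in H483A cells. None of these differences passed the threshold.

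Plasminogen itself (Plg), made mainly by the liver, gave a weak signal between 3.49 and 3.84. This gene was added after its values were seen.

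Among 16 other serpins measured of 20 listed, 0 passed in either comparison, with 5 above 0 and 11 below for KDM5A-WT cells and 7 above and 9 below for H483A cells. The medians were -0.07 and -0.03. Serpinb1a stood at 5.77 and 5.35 in control cells, 6.36 and 3.82 in KDM5A-WT cells, and 5.78 and 4.16 in H483A cells. Its second KDM5A arrays were the lowest of all, and its differences from the controls were -0.48 (95% CI -2.54 to 1.59) in KDM5A-WT cells and -0.59 (95% CI -2.65 to 1.47) in H483A cells. Serpinh1, the collagen chaperone and the brightest serpin measured here, stood at 11.33 and 11.15, 11.46 and 10.40, and 11.48 and 10.53, and differed from the controls by -0.31 (95% CI -1.31 to 0.70) in KDM5A-WT cells and -0.23 (95% CI -1.24 to 0.77) in H483A cells. Serpinb6a, an intracellular protease inhibitor, was higher in the second H483A array, at 9.91 against 8.53 to 9.03 in the other 5, and differed from the controls by 0.77 (95% CI 0.03 to 1.52, adjusted p by limma = 0.999) in H483A cells and 0.35 (95% CI -0.39 to 1.10) in KDM5A-WT cells. Without the second H483A array the former was 0.27, and without the first 1.27.

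**Figure D5:**
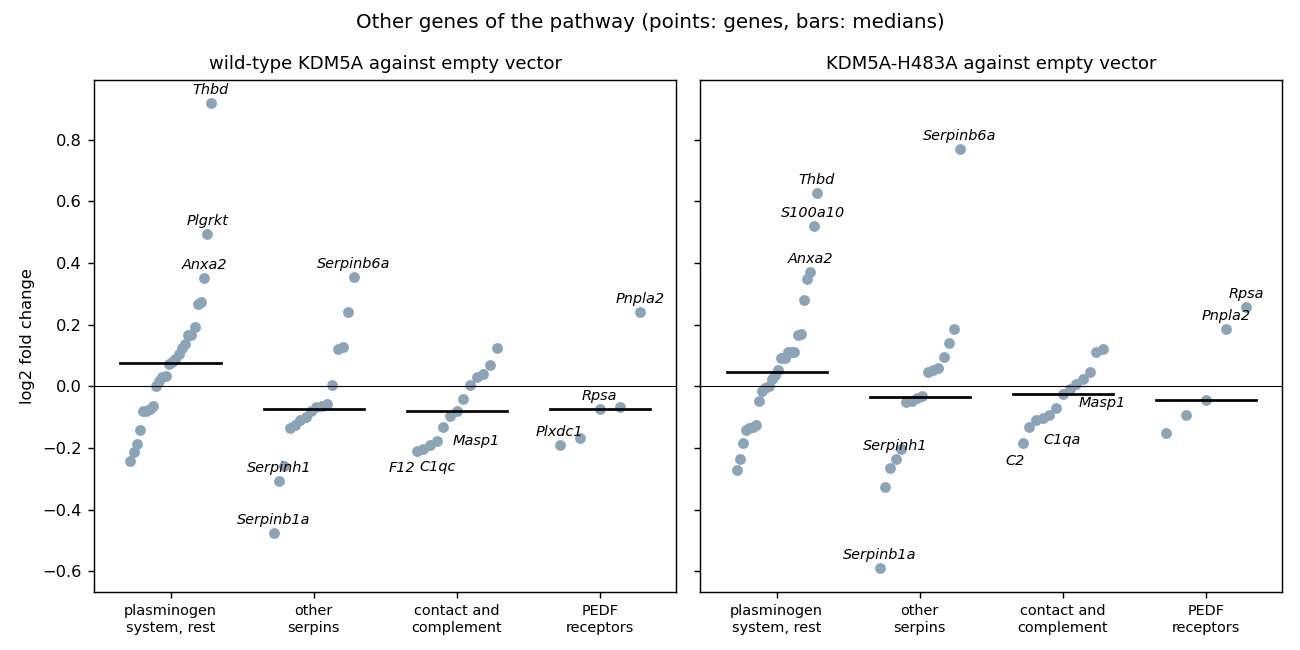
Log2 fold change against the controls of the other measured genes, by list (points), with the list median (bars), for KDM5A-WT cells (left) and H483A cells (right). Medians lie between -0.08 and 0.08; Thbd is highest on the left at 0.92 and Serpinb6a on the right at 0.77, and no gene passed the threshold.

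The complement and contact proteases that C1 inhibitor acts on, with related components, gave 13 measured genes of 16, of which 0 passed. In each comparison against the controls 5 were above 0 and 8 below, with medians of -0.08 and -0.02. The largest differences in KDM5A-WT cells were -0.21 (95% CI -0.51 to 0.09) for F12, the contact factor XII gene, and -0.20 (95% CI -0.50 to 0.10) for C1qc, a chain of C1q. With KDM5A-H483A they were -0.18 (95% CI -0.46 to 0.10) for C2 and -0.13 (95% CI -0.46 to 0.19) for C1qa. Masp1, a lectin-pathway protease and the brightest of the list, differed by -0.13 (95% CI -0.52 to 0.25) and -0.01 (95% CI -0.39 to 0.38), the latter turning to 0.02 when the arrays were centred on their medians. C1s1 and C1ra, the targets that name the C1 inhibitor, were lower in the second array of all 3 groups. C1s1 stood at 4.49 and 4.14, 4.86 and 3.60, and 4.78 and 3.64, and C1ra at 4.75 and 4.62, 5.27 and 4.36, and 5.03 and 4.39. Both were picked for mention with their values in view.

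All 5 listed genes of proteins reported to bind PEDF were measured, and 0 passed. In KDM5A-WT cells 1 was above 0 and 4 below, and in H483A cells 2 and 3, with medians of -0.07 and -0.04. Pnpla2, a lipase at lipid droplets, differed by 0.24 (95% CI -0.26 to 0.74) and 0.19 (95% CI -0.31 to 0.69). Plxdc1, a membrane receptor, differed by -0.19 (95% CI -0.52 to 0.14) in KDM5A-WT cells. Rpsa, the laminin receptor and a ribosomal protein, differed by -0.07 (95% CI -0.66 to 0.51) and 0.26 (95% CI -0.32 to 0.84). Between the KDM5A forms 0 genes of these 4 lists passed, and the list medians were -0.05 for the plasminogen system, 0.06 for the other serpins, 0.02 for the complement and contact genes and 0.02 for the PEDF receptors.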

How the data were processed

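The authors deposited 1 table of log2 values, which the submitters' processing notes credit to RMA. The software version is not stated there. Values ran from 2.12 to 14.1 with array medians of 4.55 to 4.60 and were used as deposited. Precision is limited by how many arrays there are. The platform annotation paired 34958 of 45101 probe sets with 1 symbol, updated through Entrez IDs for 34754, and 932 with several; 9211 had none. Each gene was represented by its brightest probe set whose ID does not end in _x_at, where it had one. Groups were compared with limma 3.58.1 (in R 4.3.3, lmFit and eBayes with a mean for each group, 3 residual and 3.42 prior degrees of freedom), two-sided, with Benjamini-Hochberg adjustment over 18194 genes and a threshold of 0.05. The procedure was tested on simulated data.

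The members and lists were chosen with earlier results of these data known. The text names all members, and from each further list the 2 genes with the largest change in each comparison against empty vector and the brightest, as none passed the threshold. Marker, matrix and interferon lists served as checks and are given as summaries. Alternatives changed the probe set summary, the features tested, the level filter, the scaling, the variance model, the arrays in the fit and the replicate block, or left out 1 array.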

Additional observations from a re-analysis of the deposited data

How the results depend on the processing

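The 6 genes passed the limma threshold in no setting. Their lowest adjusted p was 0.795 in the settings other than leaving out 1 array. With no block 459, 301 and 694 genes were under an unadjusted p of 0.05 in the comparisons KDM5A-WT over control, H483A over control and H483A over KDM5A-WT. The replicate block called 0 genes in each, with 713, 502 and 922 at that p. The labels give same-numbered samples a shared number and do not state whether they were handled together. Same-numbered deviations correlated at 0.31, 0.016 and 0.53 in the pairs control and KDM5A-WT, control and H483A, and KDM5A-WT and H483A. Whether these samples shared a batch was not tested.

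Settings other than leaving out 1 array kept the direction and side of the threshold for every member fold change, 135 of 135. The replicate block, variance model, level filter and fit of only the groups compared leave the fold change unchanged by design. So does the fit over all probe sets, which reads the same probe set. Only the probe set mean and the scalings could turn a direction. The second Serpinf1 probe set alone gave 0.12 in KDM5A-WT cells, against -0.15 in the brighter one. The level filter kept Plat, Plaur and Serpinf1 and gave no value for the other 3. Among the other genes 177 of 178 values kept direction and side of the threshold. The exception was Masp1 in H483A cells over control, at 0.018 when centred on array medians. The gap between arrays had another sign in the dimmer probe set for Plau, at 0.53 (KDM5A-WT) and 0.0501 (H483A), and for Plat, at -0.11 (control). In KDM5A-WT and H483A cells the dimmer Plat probe set gave gaps of only -0.01 and -0.06, against -1.93 and -1.91 in the brighter one. The cause was not tested.

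Leaving out 1 array gave ranges that crossed 0. For KDM5A-WT over control they were -1.28 to 0.65 for Plat, -0.33 to 1.37 for Serpinb2, -0.70 to 0.40 for Serpinf1, -1.75 to 0.79 for Serpinb1a, -0.84 to 0.22 for Serpinh1, -0.29 to 0.0275 for Masp1 and -0.25 to 0.11 for Rpsa. For H483A over control they were -1.83 to 0.0759 for Plat, -0.13 to 1.03 for Serpinb2, -0.52 to 0.14 for Serpinf1, -0.29 to 0.14 for Serping1, -1.40 to 0.22 for Serpinb1a, -0.71 to 0.24 for Serpinh1, -0.11 to 0.091 for Masp1, -0.0671 to 0.58 for Rpsa and -0.12 to 0.49 for Pnpla2. For H483A over KDM5A-WT they were -1.52 to 0.41 for Plat, -0.48 to 0.32 for Plaur, -0.92 to 0.78 for Serpinb2, -0.60 to 0.51 for Serpinf1 and -0.33 to 0.11 for Serping1. With 2 arrays a group, a lone array was taken to vary like the other groups. These fits had no replicate block and set a lone array against both arrays of the other group. The ranges therefore also hold the gap between first and second arrays. For Plat, each H483A array lay below the KDM5A-WT array of the same number, although the range crossed 0. Plau, Serpinb2 and Serping1 lie low in the signal range, which limits what their differences show.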
